A study of Arabidopsis thaliana with 30 samples.

Results

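The histidine phosphotransfer proteins (AHPs) of the model plant Arabidopsis thaliana form a family of 6 genes. AHP1 (AT3G21510), AHP2 (AT3G29350), AHP3 (AT5G39340), AHP4 (AT3G16360), AHP5 (AT1G03430) and AHP6 (AT1G80100) were taken by their gene codes from the 33199 features of the deposited expression table. All 6 were found in it. Messenger RNA had been sequenced in 30 libraries from the mutant ahp4, which the series' design text names as the allele ahp4-2, and from the wild type Col (Columbia). Seedlings grown on plates for 7 days had spent 2 h in liquid medium. That medium held 100 nM of the synthetic cytokinin 6-benzylaminopurine (BA) dissolved in 0.1% DMSO. The mock medium held the same share of DMSO without BA. Roots and shoots were parted at the hypocotyl and pooled, and the labels do not settle whether this came before or after the 2 h.

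There were 8 groups. The root groups were ahp4 with BA, ahp4 with mock, Col with BA and Col with mock, with 4 libraries each. The shoot groups were ahp4 with BA and ahp4 with mock, with 3 libraries each, and Col with BA and Col with mock, with 4 each. All groups shared the liquid medium with DMSO, so none shows seedlings as they were on the plate. The sources used here do not describe the lesion of ahp4-2. They name 1 allele only, so what belongs to the allele and what to the gene cannot be told apart. Nothing in the labels says that the libraries of a group came from separate cultures, and p-values therefore measure the spread between these libraries, which may be technical.

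AHPs carry a phosphate group from the cytokinin receptors, which are histidine kinases in cell membranes, to response regulators in the nucleus. Type-B response regulators then switch on cytokinin target genes, and type-A response regulators, which are among those targets, dampen the signal. In Arabidopsis genetics AHP1, AHP2, AHP3 and AHP5 act as overlapping positive carriers of the signal. AHP6 lacks the histidine that takes the phosphate and inhibits the relay, a role known from the formation of protoxylem in the root.

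The codon of that histidine lies within 1 coding exon of each gene, and the 45 bases around it are printed to show the site at which AHP6 differs from the other members. The bases come from the TAIR10.1 genome, 5′ to 3′ on the strand of the gene, with the codon aligned to the phosphorylated histidine in capitals. In AHP1 to AHP5 the codon encodes histidine, at residues 79, 82, 82, 74 and 83 of the annotated proteins in that order. In AHP6 it encodes asparagine, at residue 83.
AHP1, chr3:7578963-7579007, minus strand: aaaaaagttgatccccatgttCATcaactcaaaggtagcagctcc
AHP2, chr3:11264843-11264887, minus strand: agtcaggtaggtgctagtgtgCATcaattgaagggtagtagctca
AHP3, chr5:15749733-15749777, plus strand: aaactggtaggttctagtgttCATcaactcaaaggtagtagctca
AHP4, chr3:5554737-5554781, plus strand: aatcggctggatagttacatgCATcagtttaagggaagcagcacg
AHP5, chr1:848667-848711, plus strand: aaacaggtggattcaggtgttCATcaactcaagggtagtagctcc
AHP6, chr1:30134155-30134199, plus strand: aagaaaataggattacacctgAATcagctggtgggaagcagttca

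The proteins were short, from 145 residues in AHP4 to 157 in AHP5. AHP2 and AHP3 were the most alike pair, with 81.3% identical residues and 85.4% identical coding bases. AHP5 shared 71.2% of residues with AHP2 and 71.6% with AHP3. AHP1 shared 53.9% with AHP3, AHP4 at most 45.8% with any member (AHP5), and AHP6 at most 46.3% (AHP1). The longest run of identical coding bases in any pair was 45 bases, in AHP2 and AHP3, and the reads were 150 bp long and paired. How the authors assigned reads that match more than 1 gene is not given in the sources used here, and the split of reads between AHP2 and AHP3 is uncertain to that extent. AHP4 (chr3:5554197-5555789) overlaps AT3G03295 on the opposite strand by 212 bases at its 3′ end, and AT3G03295 was listed at 0 in each of the 30 libraries. Whether reads were counted by strand is not given in the sources used here. AHP3 (chr5:15748731-15750891) overlaps AT5G39350 by 17 bases on the same strand.

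Levels are in FPKM, fragments per kilobase of transcript and unit of library size, a scale that allows comparison between genes. Whole reads could be rebuilt from the table, and libraries held 9205127 to 13779004 of them (median 10466773). Of the organ markers, the 6 shoot markers summed to 40.5 to 319 FPKM in root libraries and 38082 to 60017 FPKM in shoot libraries. The 10 root markers summed to 292 to 724 FPKM in roots and 11.9 to 21.8 FPKM in shoots, so each library showed the organ on its label. MRN1, a root marker that makes the triterpene marneral, was at 0 in each shoot library. Of the same list SCR and WOX5 overlapped between the organs, SCR with 8.39 to 14.3 FPKM in roots and 6.43 to 13.7 FPKM in shoots. For replicate 1 of ahp4 mock roots the title gave ahp4 and mock, while its other labels gave Col-0 with BA. The title decided its group, and results that use it are also given without it where that changes a call.

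The family total was higher in roots than in shoots, and AHP1 made up most of the difference. The summed FPKM of the 6 genes averaged 232 ± 24.4 in ahp4 BA roots, 178 ± 14.2 in ahp4 mock roots, 206 ± 9.41 in Col BA roots and 165 ± 15.4 in Col mock roots (SD, n = 4 each). In shoots it averaged 65.8 ± 3.92 with BA and 69.2 ± 1.84 with mock in ahp4 (SD, n = 3 each), and 76.7 ± 5.87 with BA and 72.5 ± 4.82 with mock in Col (SD, n = 4 each). Without AHP1 the sums were closer, at 84.0, 76.4, 85.7 and 79.1 FPKM in the 4 root groups and 60.8, 66.3, 70.5 and 69.7 FPKM in the 4 shoot groups, in the same order. These are levels of a tissue pool, in which fewer cells that express a gene and less RNA per cell cannot be told apart.

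AHP1 held the largest share of the family total in each root library, from 46.6% to 65.4%, and AHP2 held the largest share in each shoot library. The share of AHP1 averaged 63.8% in ahp4 BA roots (range 62.2% to 65.4%), 56.9% ± 2.63 in ahp4 mock roots, 58.3% ± 1.98 in Col BA roots and 52.1% ± 4.36 in Col mock roots (SD, n = 4 each). In shoots AHP1 held 7.49% ± 2.08 in ahp4 with BA, 4.20% ± 0.773 in ahp4 with mock (SD, n = 3 each), 8.01% ± 1.36 in Col with BA and 3.80% ± 1.04 in Col with mock (SD, n = 4 each). The root and shoot ranges of this share lay far apart. AHP2 held 13.6% to 24.4% in root libraries and 41.7% to 51.5% in shoot libraries. AHP3, its closest relative, held 14.3% to 18.9% in roots and 20.7% to 28.9% in shoots. AHP5 held 4.13% to 8.43% in roots and 14.5% to 19.7% in shoots. AHP6 was minor in both organs and AHP4 in roots. In Col mock shoots AHP4 averaged 7.07%, above the 3.80% of AHP1, with replicate 1 alone at 13.5%. AHP4 took 0% to 1.19% in roots and 0.518% to 13.5% in shoots, and AHP6 took 0.419% to 1.87% in roots and 0% to 0.55% in shoots.

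**Figure D1:**
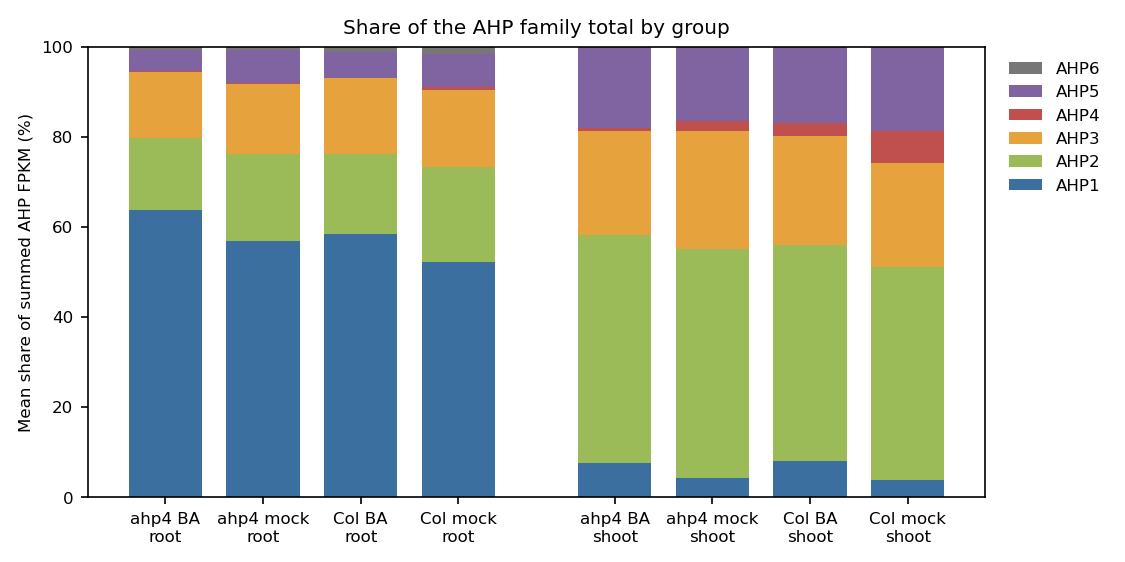
Mean share of the summed FPKM of the 6 AHP genes (vertical axis, %) in each of the 8 groups of genotype, treatment and organ (n = 4 libraries, or 3 in the 2 ahp4 shoot groups). AHP1 fills 52.1% to 63.8% of the root bars and 3.80% to 8.01% of the shoot bars, and AHP2 fills 47.2% to 50.7% of the shoot bars.

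AHP1 had the widest organ difference of the members in FPKM and on the log2(FPKM + 1) scale. As a ratio of means AHP6 differed more in Col with BA, 28.1-fold against 19.5-fold for AHP1, with 3 AHP6 reads in all 4 of those shoot libraries together. In roots the AHP1 levels were 129, 146, 169.6 and 149 FPKM in ahp4 with BA and 104, 118, 94.5 and 89.0 FPKM in ahp4 with mock. In Col roots they were 111, 118, 129 and 123 FPKM with BA and 72.4, 94.0, 93.0 and 83.8 FPKM with mock. No shoot library exceeded 7.54 FPKM. In ahp4 shoots AHP1 had 6.88, 3.61 and 4.47 FPKM with BA and 3.02, 2.35 and 3.34 FPKM with mock. In Col shoots it had 6.22, 7.54, 6.40 and 4.49 FPKM with BA and 3.68, 2.17, 3.41 and 1.85 FPKM with mock. Its lowest root library was therefore above its highest shoot library in both genotypes and treatments.

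Differences were tested with limma, a linear model fitted across all features, on log2(FPKM + 1), a scale that understates the change of low genes. A feature was called where its Benjamini-Hochberg adjusted p over all features was under 0.05. Root against shoot, most features differed. Of 20818 features tested by limma 70.5% were called in ahp4 with BA, 70% in ahp4 with mock, 71.6% in Col with BA and 71.3% in Col with mock, so a call by itself says little about a member. AHP1 was higher in roots by 4.67 ± 0.17 in ahp4 with BA and 4.71 ± 0.17 in ahp4 with mock, and by 4.09 ± 0.16 in Col with BA and 4.55 ± 0.16 in Col with mock (log2 ± SE). AHP6, the inhibitor, was higher in roots in the same 4 comparisons, by 1.14 ± 0.20, 1.19 ± 0.20, 1.62 ± 0.18 and 1.55 ± 0.18 in that order. AHP6 passed the filter on low values, at least 1 FPKM in at least 3 libraries, through its root libraries alone, with at most 0.405 FPKM in any shoot library, and its organ difference is therefore given as a description. AHP3 was called higher in roots in each, by 1.13 ± 0.10 and 0.58 ± 0.10 in ahp4 with BA and mock, and by 0.86 ± 0.10 and 0.71 ± 0.10 in Col with BA and mock. AHP4 went the other way. It passed the filter through the shoots, with 1 of 16 root libraries above 1 FPKM, so its organ values are a description too. Its root minus shoot difference was -0.46 ± 0.30 in ahp4 with BA, -0.81 ± 0.30 in ahp4 with mock, -1.23 ± 0.27 in Col with BA and -1.52 ± 0.27 in Col with mock. In ahp4 with mock it was -0.54 without shoot replicate 1.

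AHP2 and AHP5, both general carriers of the signal, had about the same level in roots and shoots on the deposited scale. AHP2 ran from 28.3 to 43.9 FPKM over the root libraries and from 31.4 to 38.2 FPKM over the shoot libraries. AHP5 had group means of 11.2 to 12.8 FPKM in roots and 11.3 to 13.3 FPKM in shoots. Neither was called in any of the 4 comparisons, with differences of -0.05 to 0.13 for AHP2 and -0.12 to 0.17 for AHP5 (log2), but scaling by read totals made both higher in roots in all 4, AHP2 by 0.41 to 0.56 and AHP5 by 0.30 to 0.60, and called each. That scaling also moved the median of all features in Col mock to 0.53, against 0.07 on the deposited scale. Quantile normalization called AHP2 in Col mock, at 0.21 higher in roots. AHP1 and AHP3 kept their direction and call in all 4 comparisons with read totals, TMM and quantile normalization, and AHP4 and AHP6 kept their direction.

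**Figure D2:**
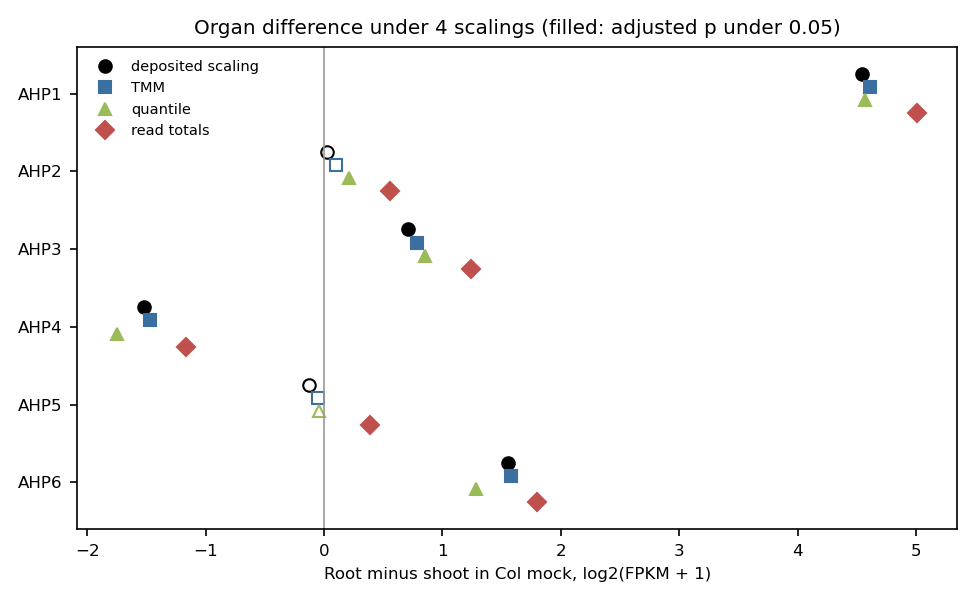
Root minus shoot difference of each AHP gene in mock-treated Col on the log2(FPKM + 1) scale (horizontal axis), with the deposited scaling and 3 others. AHP2 and AHP5 sit near 0 on the deposited scale and at 0.56 and 0.39 with read totals, while AHP1, AHP3, AHP4 and AHP6 stay on their own side of 0.

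BA raised AHP1 in roots of both genotypes and in Col shoots, and its rise in ahp4 shoots, with fewer libraries, was not called. In roots the BA libraries lay above the mock libraries without overlap, 129 to 169.6 against 89.0 to 118 FPKM in ahp4 and 111 to 129 against 72.4 to 94.0 FPKM in Col. The change was 0.54 ± 0.11 in ahp4 roots (1.46-fold, limma adjusted p = 0.00156), 0.48 ± 0.11 in Col roots (1.40-fold, adjusted p = 0.00389) and 0.51 ± 0.08 as the mean of the genotypes (adjusted p = 5.23e-05). Of the 19418 features tested in roots limma called 20.7% in ahp4, 20.5% in Col and 36.3% for the mean of the genotypes, beside 2, 1 and 2 of the 5 members tested, so a call was common among root transcripts. In shoots AHP1 changed by 0.94 ± 0.20 in Col (1.91-fold on FPKM + 1, limma adjusted p = 0.012). As a ratio of mean FPKM this was 2.22-fold. AHP1 had 4.49 to 7.54 FPKM with BA and 1.85 to 3.68 FPKM with mock there, without overlap. In ahp4 shoots its change of 0.59 ± 0.24 was not called (adjusted p = 0.203), with 3.61 to 6.88 FPKM against 2.35 to 3.34 FPKM, again without overlap. As the mean of the genotypes it was 0.76 ± 0.16 (adjusted p = 0.00438). Of 18246 features tested in shoots limma called 3.92% in ahp4, 8.15% in Col and 17.3% for the mean, beside 0, 1 and 2 of the 5 members tested. The shoot values rest on 187 and 307 rebuilt reads with BA in ahp4 and Col, and on 128 and 142 with mock.

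AHP3 rose with BA in roots by a smaller step. Its levels were 32.3, 32.0, 39.0 and 33.8 FPKM with BA against 30.1, 29.4, 26.9 and 24.7 FPKM with mock in ahp4 roots, which did not overlap. In Col roots they were 31.7, 35.7, 34.8 and 35.4 FPKM with BA against 26.6, 27.2, 25.4 and 34.1 FPKM with mock, where mock replicate 4 stood among the BA libraries. The change was 0.30 ± 0.10 in ahp4 roots (limma adjusted p = 0.0386) and 0.28 ± 0.10 in Col roots (adjusted p = 0.0501, not called), and 0.29 ± 0.07 as the mean of the genotypes, which was called (adjusted p = 0.00337). The call in ahp4 roots was lost with quantile normalization (0.23, adjusted p = 0.0642), in the compared groups alone (adjusted p = 0.0503), and without BA replicate 3 or 4 or mock replicate 3 or 4, with adjusted p up to 0.125, and the change in Col roots was called without mock replicate 4 (adjusted p = 0.00744) or BA replicate 1. In shoots AHP3 was not called, at -0.26 ± 0.12 in ahp4 and 0.13 ± 0.10 in Col. Within ahp4 the root response minus the shoot response of AHP3 was 0.55 ± 0.15, which was called (adjusted p = 0.0171), among 8.76% of features. Without ahp4 mock shoot replicate 3 the adjusted p was 0.0625. In Col, where limma called 11.6% of features for the same difference, AHP3 had 0.15 ± 0.14 and no member was called.

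**Figure D3:**
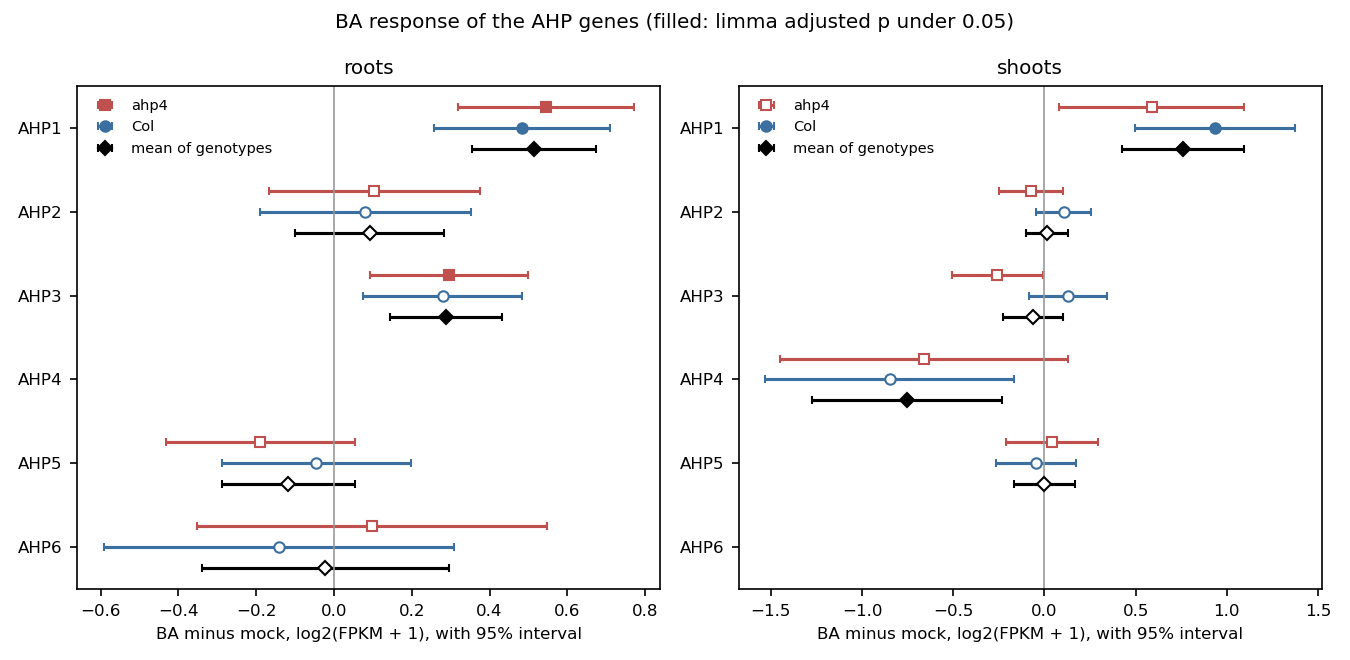
BA minus mock change of each AHP gene on the log2(FPKM + 1) scale (horizontal axis) with its 95% interval, in roots (left) and shoots (right), for ahp4, Col and the mean of both. AHP1 lies right of 0 in both organs, at 0.51 in roots and 0.76 in shoots for the mean, and AHP4 lies left of 0 in shoots at -0.75, while AHP4 in roots and AHP6 in shoots did not pass the filter on low values and have no point.

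AHP4 was the member that stood lower with BA. In ahp4 shoots it had 0.363, 0.614 and 0.622 FPKM with BA, against 2.49, 1.23 and 0.808 FPKM with mock. Col shoots had 1.88, 1.61, 3.71 and 1.72 FPKM with BA and 10.6, 2.66, 4.37 and 3.48 FPKM with mock. The groups did not overlap in ahp4, where the exact permutation p was 0.1, and in Col they overlapped through BA replicate 3 alone. The limma change was -0.66 ± 0.37 in ahp4 shoots and -0.85 ± 0.32 in Col shoots, neither called (adjusted p = 0.377 and 0.12). The mean of the genotypes, -0.75 ± 0.24, was called (adjusted p = 0.0462), but it lost the call when any of 10 of the 14 shoot libraries was left out (adjusted p up to 0.112). In roots AHP4 was below the level needed for the limma test. It had 0.514 FPKM in ahp4 BA replicate 1 and 0 in the other 3, against 0.350, 0.435, 0.347 and 0.381 FPKM with mock. A count of 0 reads in those 3 libraries allows a level of up to 0.208 to 0.275 FPKM. Col roots had 0.538, 0.885, 0.0917 and 0 FPKM with BA, against 1.71, 0.539, 0.901 and 0.879 FPKM with mock, which overlapped. Permuting treatment within genotype, the two-sided exact permutation p was 0.0143 in roots, on 25 reads with BA and 70 with mock, and 0.00714 in shoots, on 85 and 221 reads. Adjusted over the 14 exact tests run on AHP4 and AHP6 these were 0.0667 and 0.05, not under the threshold. Fitted in limma without the filter on low values, the mean of the genotypes in roots was -0.44 ± 0.14 (adjusted p = 0.0341). Without the filter limma called 6993 of 26053 features for that mean. It called AHP4 in neither genotype alone (limma adjusted p = 0.358 in ahp4 roots and 0.0814 in Col roots).

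AHP2, AHP5 and AHP6 were not called with BA in any comparison in which they were tested. The 95% intervals for the mean of the genotypes ran from -0.10 to 0.28 for AHP2, from -0.29 to 0.05 for AHP5 and from -0.34 to 0.30 for AHP6 in roots (log2). In shoots they ran from -0.10 to 0.13 for AHP2 and from -0.17 to 0.17 for AHP5. In shoots AHP6 did not pass the filter on low values, and the two-sided exact permutation p within genotype was 0.779, on 8 reads with BA and 11 with mock. Relative to the other carriers AHP1 gained weight with BA, as a measure within each library that library scaling does not touch. The ratio of AHP1 to the sum of AHP2, AHP3 and AHP5 averaged 1.80 ± 0.10 with BA and 1.36 ± 0.14 with mock in ahp4 roots, and 1.45 ± 0.12 with BA and 1.15 ± 0.20 with mock in Col roots (SD, n = 4 each). The BA and mock libraries did not overlap in either genotype, though the ratio uses the same AHP1 values as above. In shoots it averaged 0.082 ± 0.024 with BA and 0.045 ± 0.009 with mock in ahp4 (SD, n = 3 each), and 0.090 ± 0.016 with BA and 0.043 ± 0.014 with mock in Col (SD, n = 4 each). Beside this, the 10 root markers of Col roots summed to 448 to 669 FPKM with BA and 292 to 438 FPKM with mock, and 3 of 10 were called higher (MRN1, THAS and WOX5) and 2 lower (SCR and SHR), beside 20.5% of all features. THAS, a triterpene synthase, made up most of the difference in the sum, with a mean of 248 FPKM with BA and 94.5 FPKM with mock, and the median change of the list was 0.19. In ahp4 roots the sums were 439 to 724 FPKM with BA and 339 to 659 FPKM with mock, which overlapped, and the same 3 genes were called higher and SCR lower, beside 20.7% of all features, with a list median of 0.02. The part of these markers in the AHP1 result was not tested.

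**Figure D4:**
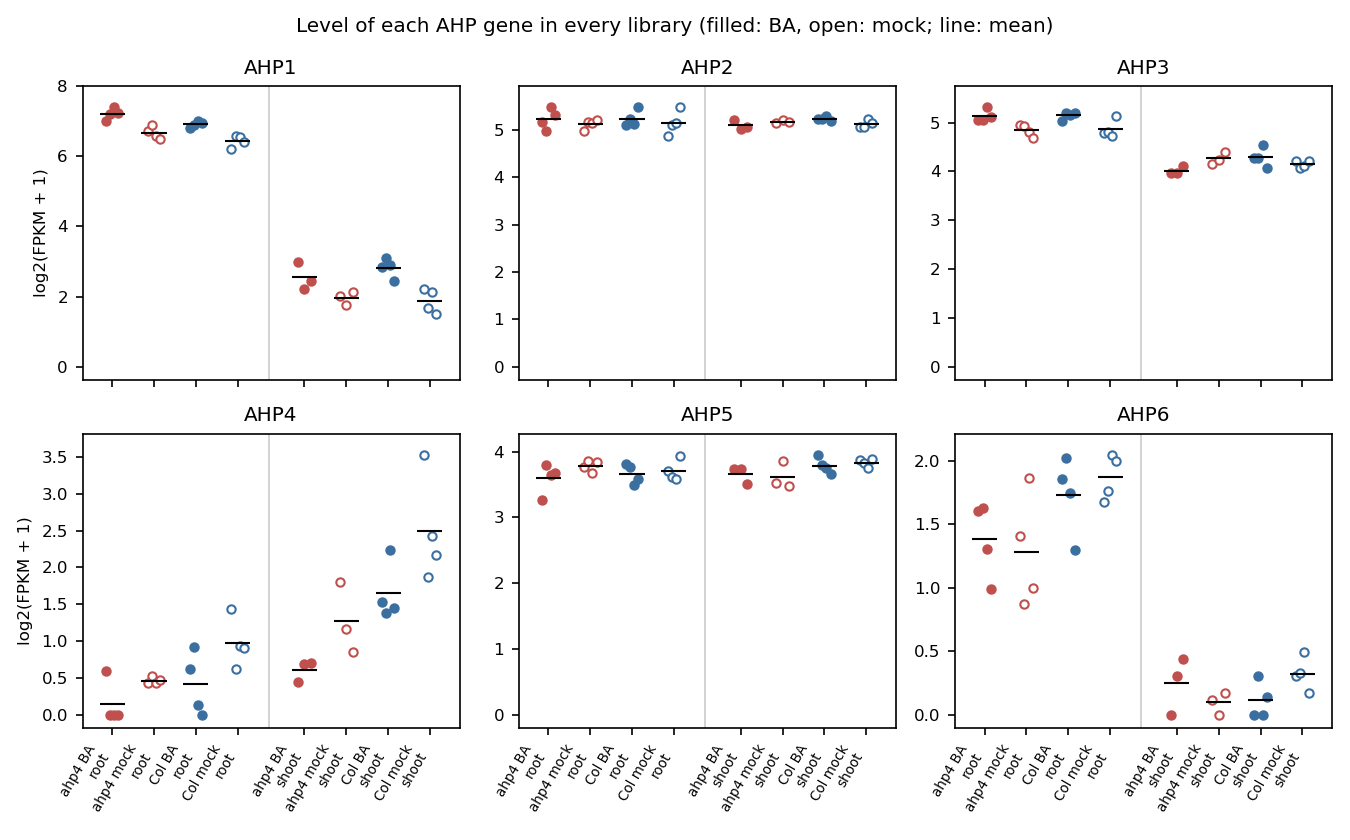
Level of each AHP gene in every library as log2(FPKM + 1) (vertical axis, which starts at about 0 and has its own upper end for each gene), by group, with filled points for BA, open points for mock and a line at the group mean. In roots the BA points of AHP1 lie above the mock points of the same genotype, and the AHP4 points of ahp4 shoots lie below those of Col shoots of the same treatment.

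The remaining parts of the relay were read as known lists. All 10 type-A response regulators tested in roots rose with BA in ahp4 and in Col, with a median change of 1.82 and 1.81, and all 8 tested in shoots rose in both, with a median of 2.48 and 2.18, against a median of all features between -0.045 and -0.003. ARR15, a type-A regulator, had the largest change in shoots, 4.03 ± 0.29 in ahp4 and 4.17 ± 0.25 in Col. It ran from 0.0926 to 31.6 FPKM over the shoot libraries, and ARR17 from 0 to 5.48 FPKM over the root libraries. Genes this low in some libraries can pass the filter on low values through their BA libraries. Their rise, and their part in these counts, is therefore a description. Of the 3 receptors AHK4, the main cytokinin receptor of roots, rose in each comparison, by 0.84 ± 0.10 in ahp4 roots and in Col roots, 1.58 ± 0.14 in ahp4 shoots and 1.24 ± 0.12 in Col shoots. AHK2 fell in roots, by 0.75 ± 0.13 in ahp4 and by 0.60 ± 0.13 in Col. AHK3 was called higher in Col roots (0.46 ± 0.16, adjusted p = 0.0476) and had 0.31 in ahp4 roots (adjusted p = 0.174). Of the other histidine kinases AHK1, a kinase tied to osmotic responses, rose in each comparison, most in ahp4 roots at 1.60 ± 0.18. AHK5 was called lower in roots, by -0.61 ± 0.16 in ahp4 and -0.70 ± 0.16 in Col (limma adjusted p = 0.0108 and 0.00442). Of 5 type-B regulators tested in roots ARR12 was called higher in ahp4, by 0.72 ± 0.09, and ARR12 and ARR10 in Col, by 0.60 ± 0.09 and 0.35 ± 0.11, beside 20.7% and 20.5% of all features. None of the 5 tested in shoots was called in ahp4 or Col, beside 3.92% and 8.15% of all features. Counts of this size are near the background. The type-C regulators ARR22 and ARR24 were listed at 0 in each library.

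The 300 bases before the annotated start of each gene were searched on both strands for AGATT and AGATC, core motifs of type-B regulators, and for the extended motif AAGATNTT. Of 27443 promoters of that length in TAIR10.1, 70.7% hold AGATT, 31.7% hold AGATC and 14.3% hold AAGATNTT. AHP1 has 1 AAGATNTT on the reverse strand, which contains its 1 AGATT. AHP3 has 4 AGATT, AHP4 has 1, and AHP5 has 1 together with 2 AGATC, which are the 2 strands of 1 AGATCT. The annotated genes AT1G03410, AT1G04183 and AT1G03420 also fall in the AHP5 window. AHP2 and AHP6 have none of these letters in the window. The promoters of the 2 members called with BA in roots are printed with the matches in capitals.
AHP1, chr3:7579790-7580089, minus strand: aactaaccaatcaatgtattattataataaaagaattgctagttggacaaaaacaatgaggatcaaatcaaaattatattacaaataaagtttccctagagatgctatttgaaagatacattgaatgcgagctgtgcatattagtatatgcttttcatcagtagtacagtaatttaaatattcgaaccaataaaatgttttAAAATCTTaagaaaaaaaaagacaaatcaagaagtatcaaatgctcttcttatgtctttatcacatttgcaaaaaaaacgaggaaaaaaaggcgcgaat
AHP3, chr5:15748431-15748730, plus strand: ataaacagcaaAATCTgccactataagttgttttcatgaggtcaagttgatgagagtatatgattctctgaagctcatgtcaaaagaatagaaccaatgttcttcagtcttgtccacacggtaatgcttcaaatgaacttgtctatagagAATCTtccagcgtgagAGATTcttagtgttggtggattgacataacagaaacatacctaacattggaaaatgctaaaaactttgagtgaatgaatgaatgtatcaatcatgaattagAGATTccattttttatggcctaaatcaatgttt
A match describes these letters and does not show binding.

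In the mutant the AHP4 transcript was lower but still detected. Its mean in ahp4 was 0.339 of that in Col in BA roots, 0.376 in mock roots, 0.239 in BA shoots and 0.287 in mock shoots. The libraries of ahp4 and Col did not overlap in mock roots, BA shoots or mock shoots, and they overlapped in BA roots. Two-sided exact permutation p-values were 0.257 in BA roots, 0.0286 in mock roots, 0.0286 in BA shoots and 0.0571 in mock shoots. For 4 against 4 and for 3 against 4 libraries 0.0286 is the smallest p that this test can give. Leaving out any ahp4 mock root library, the one with conflicting labels included, gave an exact p of 0.0571 there. With genotype permuted within treatment the exact permutation p was 0.000816 in shoots (0.0114 adjusted over the 14 exact tests, log2 difference -1.13, on 60 reads in ahp4 and 246 in Col) and 0.0241 in roots (0.0667 adjusted, log2 difference -0.39, on 23 and 72 reads). Fitted across all features by limma, the shoot difference had an unadjusted p of 0.000365 and an adjusted p of 0.669. AHP4 took 0.821% of the family total in ahp4 BA shoots and 2.20% in ahp4 mock shoots, against 2.87% in Col BA shoots and 7.07% in Col mock shoots, where replicate 1 alone stood at 13.5%.

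By limma no member tested was called between ahp4 and Col. AHP4 was tested in shoots only and AHP6 in roots only. Neither passed the filter on low values in the other organ. In roots limma called 0.0257% of 19418 features with BA, 0.0875% with mock and 0.0927% for the mean of the treatments, and in shoots 0.00548% of 18246 features in each of these comparisons, so few calls were made in any of them. AHP1 in roots had 129 to 169.6 FPKM with BA and 89.0 to 118 FPKM with mock in ahp4, against 111 to 129 FPKM with BA and 72.4 to 94.0 FPKM with mock in Col. The genotypes overlapped with mock. With BA the lowest ahp4 library, 128.9 FPKM, lay just above the highest Col library, 128.5 FPKM. Its ahp4 minus Col difference was 0.27 ± 0.08 for the mean of the treatments (95% interval 0.11 to 0.43, unadjusted p = 0.00257, limma adjusted p = 0.288). AHP6 in roots had 2.04, 2.09, 1.48 and 0.988 FPKM with BA and 1.66, 0.827, 2.64 and 0.997 FPKM with mock in ahp4. Col roots had 2.63, 3.06, 2.35 and 1.46 FPKM with BA and 2.20, 2.39, 3.14 and 3.01 FPKM with mock. These ranges overlapped, and the difference was -0.47 ± 0.15 (95% interval -0.79 to -0.15, unadjusted p = 0.00653, adjusted p = 0.334). Beside it, the 5 xylem markers summed to 164 to 243 FPKM with BA and 152 to 182 FPKM with mock in ahp4 roots, against 168 to 207 FPKM with BA and 145 to 175 FPKM with mock in Col roots, and none was called between ahp4 and Col. Their part in the AHP6 values was not tested.

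AHP2 and AHP3 were close to Col in ahp4 roots, with 95% intervals of -0.21 to 0.18 and -0.16 to 0.13 for the mean of the treatments, and AHP5 had -0.17 to 0.17. In shoots the same intervals were -0.44 to 0.23 for AHP1, -0.16 to 0.07 for AHP2, -0.25 to 0.08 for AHP3 and -0.34 to -0.01 for AHP5 (unadjusted p = 0.0434, adjusted p = 0.881). In shoots AHP6 had an exact permutation p of 0.643 within treatment, on 7 reads in ahp4 and 12 in Col. None of the receptors, other histidine kinases, type-A or type-B regulators that were tested was called between ahp4 and Col with BA, with mock or for the mean, in either organ. The BA response was not called different between the genotypes for any member tested, and the limma interaction test called 0% of features in roots and 0% in shoots. At an unadjusted p under 0.05 there were 526 and 336 features, and limma with voom weights on the rebuilt reads also called 0 in both organs. The smallest member p was that of AHP3 in shoots, with an ahp4 minus Col difference in response of -0.39 ± 0.15 (unadjusted p = 0.0239).

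**Figure D5:**
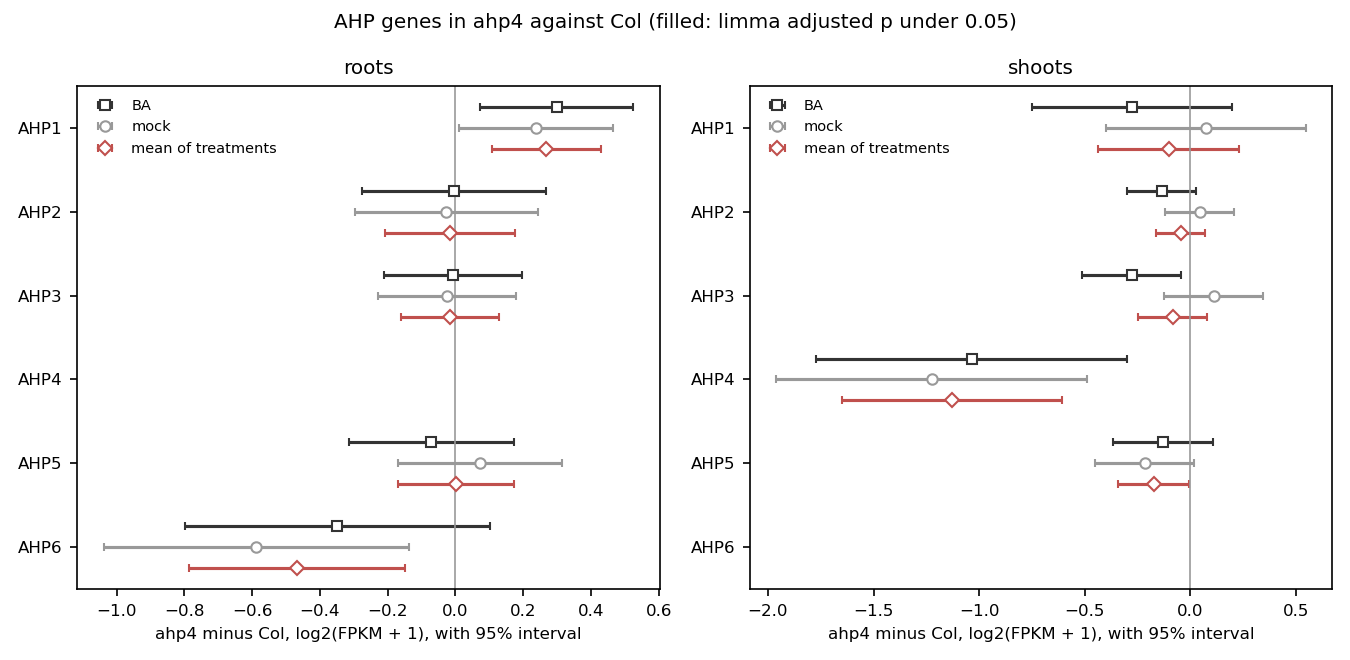
ahp4 minus Col difference of each AHP gene on the log2(FPKM + 1) scale (horizontal axis) with its 95% interval, in roots (left) and shoots (right), with BA, with mock and as the mean of the treatments. No point is filled, since none had a limma adjusted p under 0.05. AHP4 in shoots has the lowest values, -1.04 with BA and -1.22 with mock.

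Within roots the members did not vary together as 1 block. Over the 16 root libraries, which share treatment and genotype groups, Pearson's r of log2(FPKM + 1) was 0.73 between AHP1 and AHP3, 0.56 between AHP2 and AHP3 and -0.80 between AHP1 and AHP4, the last resting on AHP4 values of at most 25 reads. Over the 14 shoot libraries r was 0.14, 0.54 and -0.23 for the same pairs. Over all 30 libraries the features most like AHP1 were UGT72E2 (r = 0.992), a glucosyltransferase of lignin precursors, SPP1 and HIPP25 (both 0.990), but 1504 of 8276 named features had an r over 0.9 with it, and these libraries fall into 2 organs. Within roots AHP1 was most like CYP706A7 (0.939), UGT84A4 (0.934) and ARSK1 (0.934). AHP3, with 877 features over 0.9, was most like IAA28 (0.959), an auxin response repressor, RWP1 (0.959) and MYB50 (0.958) over all libraries, and like SCN1 (0.917), LSD1 (0.911) and FIP1 (0.910) within roots. AHP6, with 363 features over 0.9, was most like HSP60 (0.948), HSFB4 (0.943) and NAC015 (0.941) over all libraries, and AHP4 like EMB1873 (0.830), APRR8 (0.811) and SAG29 (0.806). AHP2 and AHP5, whose levels vary little, had highest r of 0.674 with SCAMP5 and 0.574 with PP2A over all libraries. Within 1 organ their highest r was larger, 0.863 with JAL31 for AHP2 in roots and 0.886 with ABCB14 for AHP5 in shoots.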

How the data were processed

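Polyadenylated RNA of 30 libraries was sequenced as paired reads of 150 bp, per the labels' protocols. The authors deposited 1 table of FPKM values per gene, which names no aligner, counter or strand setting; TAIR10 is the build in the submitters' processing notes. Within 0.01 reads, each of the 26893 features above 0 was a whole number of reads in every library once a gene length and a library factor were divided out, and the library factors equalled median-of-ratios size factors over 17484 features. For all 6 members the implied length equalled the union of exons in TAIR10.1, the RefSeq build from which coordinates and sequences were taken. The totals set counting error, which is large for AHP4 and for AHP6 in shoots.

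From these values log2(FPKM + 1) was fitted with limma 3.58.1 in R 4.3.3, with a mean-variance trend, over features with at least 1 FPKM in at least 3 libraries of the fit, and p-values were adjusted over all features tested. BA and genotype contrasts used 1 fit of 4 groups per organ, and organ contrasts 1 fit of all 8 groups. AHP4, and AHP6 in shoots, were compared by two-sided exact permutation over libraries. Those that permute within a second factor were added with results known. AHP4 in a root library at 0 was given the level of 3 reads as its upper limit, which covers counting error only. Coding sequences were aligned with MAFFT 7.526. Groups came from sample titles. The scripts were tested on simulated data. The members and lists were chosen with earlier results of these data known. Named genes are the members, the called list genes with the largest changes, a few further list genes, and the features with the highest r to each member, among those with a symbol and a mean of at least 1 FPKM. Alternatives covered the pseudocount, the filter, the scaling, the fit, a replicate block and each library left out.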

Additional observations from a re-analysis of the deposited data

Results flagged for a closer look

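In Col BA shoots the AHP4 level of replicate 3 stood apart from the other 3 libraries. It had 3.71 FPKM, on 28 rebuilt reads, against 1.88, 1.61 and 1.72 FPKM, and the gap to the nearest library took 0.873 of the range of the group. It was the BA library that overlapped the Col mock shoots.

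In ahp4 BA roots replicate 1 was the single library with AHP4 reads, 6 in all, and the gap took the whole range, a share of 1.0. The other 3 BA libraries were at 0 reads. Of 36 sets of 4 libraries examined over the 6 genes 2 were picked out this way. Chance alone picks out about 1 in 20 where values are normally distributed, which need not hold for AHP4 at so few reads. With 3 libraries at 0, any reads in the remaining library make the gap the whole range.

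The BA response of AHP3 in ahp4 differed between roots and shoots by 0.55 on the log2 scale (limma adjusted p = 0.0171). It was 0.30 ± 0.10 in ahp4 roots and -0.26 ± 0.12 in ahp4 shoots. The same difference was 0.15 ± 0.14 in Col (adjusted p = 0.55), and whether the organ difference itself differs between ahp4 and Col was not tested.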

How the results depend on the processing

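Of 24 called member results 20 kept their call under each alternative run. Both counts are mostly organ differences, for which 70% to 71.6% of all features were called, and they include those of AHP4 and AHP6. These genes passed the filter through 1 organ, so their organ calls are a description and no sign of robustness. Among the 20 were AHP1 with BA in ahp4 roots, Col roots and Col shoots. AHP3 with BA for the mean of both genotypes in roots was also among them. The other 4 did not, and the cause was not tested. AHP3 with BA in ahp4 roots was 0.23 with quantile normalization (adjusted p = 0.0642) and 0.30 in the compared groups alone (0.0503), and 0.23 to 0.33 with a library left out. AHP4 with BA for the mean of both genotypes in shoots was -0.75 without the filter, -0.70 with read totals, -0.73 with TMM and -1.25 with voom weights on rebuilt reads (adjusted p = 0.0559 to 0.0764), and -0.86 to -0.58 with a library left out. AHP4 root minus shoot in ahp4 mock was -0.61 with read totals and -1.02 to -0.54 with a library left out, and the organ difference of the AHP3 response in ahp4 was 0.49 to 0.61. By exact permutation, AHP4 in ahp4 minus Col for the mean of treatments in roots was -1.09 with a pseudocount of 0.1 (p = 0.0604) and -0.46 to -0.31 with a library left out. It was -0.63 to -0.36 in mock roots and -1.12 to -0.84 in BA shoots with a library left out. With read totals, root minus shoot turned positive for AHP5 at 0.39 in Col mock, 0.34 in Col BA and 0.30 in ahp4 BA, and for AHP2 at 0.49 in Col BA and 0.41 in ahp4 mock.

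Counts of features called between ahp4 and Col moved most. In mock roots there were 17, and 10 with a pseudocount of 0.1 or no filter, 26 with quantile normalization, 9 in the compared groups alone, 7 with voom and 5 to 15 with a library left out. In BA roots there were 5, and 2 with a pseudocount of 0.1, 3 without the filter, with read totals or with quantile normalization, 1 in the compared groups alone and 3 to 4 with a library left out. For the mean of treatments in roots there were 18, and 10 without the filter, 28 in 1 fit of all 8 groups and 9 to 18 with a library left out. In shoots 1 was called in each comparison, against 0 with a pseudocount of 0.1 in mock, 2 without the filter in mock and in BA, and 2 with voom for the mean. The interaction in roots had 0, and 1 in 1 fit of all 8 groups and 0 to 1 with a library left out. With BA in Col shoots there were 1487, and 989 in the compared groups alone, 2319 in 1 fit of all 8 groups and 811 to 1439 with a library left out. With BA in ahp4 shoots there were 716, and 450, 1287 and 330 to 659 in that order. The organ difference of the BA response had 2411 in Col and 1824 in ahp4, and 1562 and 1020 with voom.

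As shares of rebuilt reads, which are not per length, AHP1 took 68.8%, 62.4%, 63.7% and 57.9% in ahp4 BA, ahp4 mock, Col BA and Col mock roots, and 5.38%, 10.13% and 4.89% in ahp4 mock, Col BA and Col mock shoots. AHP2 took 11.1%, 13.7%, 12.7% and 15.2% in the 4 root groups and 41.8%, 42.2%, 39.5% and 39.4% in the 4 shoot groups. In those shoot groups AHP3 took 26.9%, 31.1%, 28.2% and 27.5% and AHP5 20.9%, 19.4%, 19.7% and 21.9%. AHP4 took 0.152% in ahp4 mock roots and AHP6 1.24% in Col mock roots.

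The replicate numbers did not pair the libraries. Deviations of libraries with the same number correlated at -0.12 to 0.35, and in 0 of 28 pairs of groups were all correlations over 0.1. With the replicate block AHP3 with BA in ahp4 roots was 0.30 (adjusted p = 0.057), and 3 features were called between ahp4 and Col in BA roots. Count models on rebuilt reads, which had been listed as alternatives, were not run, since the deposited unit is FPKM, and limma with voom weights was chosen in their place after seeing the data. Low read counts limit AHP4 and shoot AHP6.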
